A study of Mus musculus with 2 samples.

Results

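Glycolysis and hypoxia response genes were followed across the cell types of infarcted mouse brain. The set holds 32 genes taken by symbol from a list, among 31205 symbols in the feature table. No measured value stands in the rule, although the list was drawn up with earlier results of these data known. It comprises 2 glucose transporters, 9 genes of upper and 6 of lower glycolysis, 3 genes of the lactate and pyruvate branch, 3 of oxygen sensing and 9 others that are known to respond to hypoxia. Aldoa stands in the table under 2 identifiers, of which the minor one had 1 UMI in flox and 0 in cKO, and its rows were added together. UMIs are unique molecular identifiers, which count captured RNA molecules.

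The cells came from infarcts dissected 3 days after tMCAO, transient occlusion of the middle cerebral artery, a model of ischaemic stroke with reperfusion. Brain cells were released with collagenase and loaded on the BD Rhapsody system as 1 library of flox mice (WT in the design text) and 1 of Hilpda conditional knockout (cKO) mice. Hilpda is itself induced by hypoxia, and its protein sits on lipid droplets and restrains the triglyceride lipase Pnpla2. Both libraries are from infarcted tissue, so neither holds uninjured brain, and no source used here gives the Cre driver, the deleted exons, the age or the number of animals per library.

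Glycolysis splits glucose into pyruvate, and lactate dehydrogenase turns pyruvate into lactate when oxygen is short or when cells run glycolysis at a high rate. Prolyl hydroxylases use oxygen to mark the transcription factor subunit HIF-1α for degradation, so that at low oxygen HIF-1 accumulates and raises transcription of glucose transporters, most glycolytic enzymes and genes such as Bnip3, Adm, Egln3 and Ddit4. In brain, capillary endothelium takes glucose from blood through Slc2a1, and infiltrating myeloid cells are known for high glycolytic flux.

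The flox library held 8061 and the cKO library 6982 cells after filtering and removal of doublets, with medians of 6993 and 8751.5 UMIs per cell. Clusters were made without the 32 genes, 61 other genes of the pathway and Hilpda, and were named from marker genes, such as P2ry12 and Tmem119 for microglia and Cldn5 and Flt1 for endothelial cells. Each class name below stands for cells that resemble that type by these markers, and no marker of a class's own list was at 0 in the 11 classes compared. These classes held at least 50 cells in each library, from 64 and 82 neuroblasts to 3628 and 3088 monocytes or macrophages. The median depth was higher in cKO in each of the 11 classes, for example 13047 against 8468 UMIs in microglia and 5919 against 3208 in pericytes or smooth muscle cells. The libraries shared 56 cell barcodes, and without them the counts of calls between libraries were the same, 0 higher and 14 lower. Levels are given as CPM, the counts per 1e+06 UMIs when UMIs are summed over the cells of a class in a library, with exact Poisson 95% intervals. Ratios have exact conditional 95% intervals, and all intervals cover counting error only, since 1 library per group allows no test. Library preparation and genotype cannot be told apart.

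Promoters of 29 of the 32 genes were found in the RefSeq table for GRCm38.p6 (Ero1l under its current symbol Ero1a), and those of Slc2a3, Bnip3l and Ndrg1 were not matched. The core of the hypoxia response element, ACGTG or GCGTG on either strand (CACGT or CACGC on the other), stood within 250 bases before a listed start in 25 of these 29 genes, or 86.2%. Among 17492 protein-coding genes of the table the share was 47.1%. At least 2 separate stretches were present in 65.5% of the members and in 19.1% of all genes. The members' windows were also richer in G and C, with a median of 62.8% against 55.6% over all windows, so the shares are not at like base composition. The 7 upstream sequences below belong to genes described in the results, and they show how the core is placed, singly in Egln3 and in clusters in Bnip3, where CACGTG holds it on both strands. A match describes the letters and is no evidence of a bound site. They are written 5′ to 3′ on the gene's strand with the core in capitals, and they cover Hk2 (chr6:82774455-82774704, minus strand), Pgk1 (chrX:106186850-106187099, plus), P4ha1 (chr10:59323046-59323295, plus), Adm (chr7:110627407-110627656, plus), Egln3 (chr12:54203875-54204124, minus), Bnip3 (chr7:138909520-138909756, minus) and Ddit4 (chr10:59951835-59952020, minus), each outside the gene model.
Hk2: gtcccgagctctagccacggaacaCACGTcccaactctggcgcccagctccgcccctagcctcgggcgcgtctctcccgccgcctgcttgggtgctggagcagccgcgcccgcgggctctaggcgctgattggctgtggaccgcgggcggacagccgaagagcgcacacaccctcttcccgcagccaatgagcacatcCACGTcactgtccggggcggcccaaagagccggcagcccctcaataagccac
Pgk1: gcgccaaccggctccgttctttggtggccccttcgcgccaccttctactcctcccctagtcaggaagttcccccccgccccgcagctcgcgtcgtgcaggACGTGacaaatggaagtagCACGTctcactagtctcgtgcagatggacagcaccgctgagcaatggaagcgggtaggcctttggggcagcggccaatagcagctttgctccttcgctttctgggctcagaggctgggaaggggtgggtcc
P4ha1: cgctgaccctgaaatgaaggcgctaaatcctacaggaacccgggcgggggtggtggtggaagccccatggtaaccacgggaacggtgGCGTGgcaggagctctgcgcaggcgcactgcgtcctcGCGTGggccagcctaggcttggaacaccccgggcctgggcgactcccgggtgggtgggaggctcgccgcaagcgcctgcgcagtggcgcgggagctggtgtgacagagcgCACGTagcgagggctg
Adm: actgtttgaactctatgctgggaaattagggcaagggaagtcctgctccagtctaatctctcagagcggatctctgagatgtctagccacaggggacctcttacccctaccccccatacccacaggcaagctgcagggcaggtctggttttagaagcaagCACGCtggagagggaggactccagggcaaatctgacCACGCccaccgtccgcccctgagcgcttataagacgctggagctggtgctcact
Egln3: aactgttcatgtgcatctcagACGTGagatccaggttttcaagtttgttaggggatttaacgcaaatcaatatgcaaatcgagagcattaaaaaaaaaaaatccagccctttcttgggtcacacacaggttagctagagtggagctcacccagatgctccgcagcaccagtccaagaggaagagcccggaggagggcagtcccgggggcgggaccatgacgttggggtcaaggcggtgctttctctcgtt
Bnip3: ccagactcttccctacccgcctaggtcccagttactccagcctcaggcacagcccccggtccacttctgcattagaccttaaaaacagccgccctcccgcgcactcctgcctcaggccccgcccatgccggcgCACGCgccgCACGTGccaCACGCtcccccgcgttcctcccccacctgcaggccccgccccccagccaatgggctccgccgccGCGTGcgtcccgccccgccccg
Ddit4: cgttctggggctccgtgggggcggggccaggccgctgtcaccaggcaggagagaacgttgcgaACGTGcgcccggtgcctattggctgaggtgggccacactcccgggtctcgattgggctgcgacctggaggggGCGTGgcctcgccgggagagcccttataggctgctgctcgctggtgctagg

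**Figure D1:**
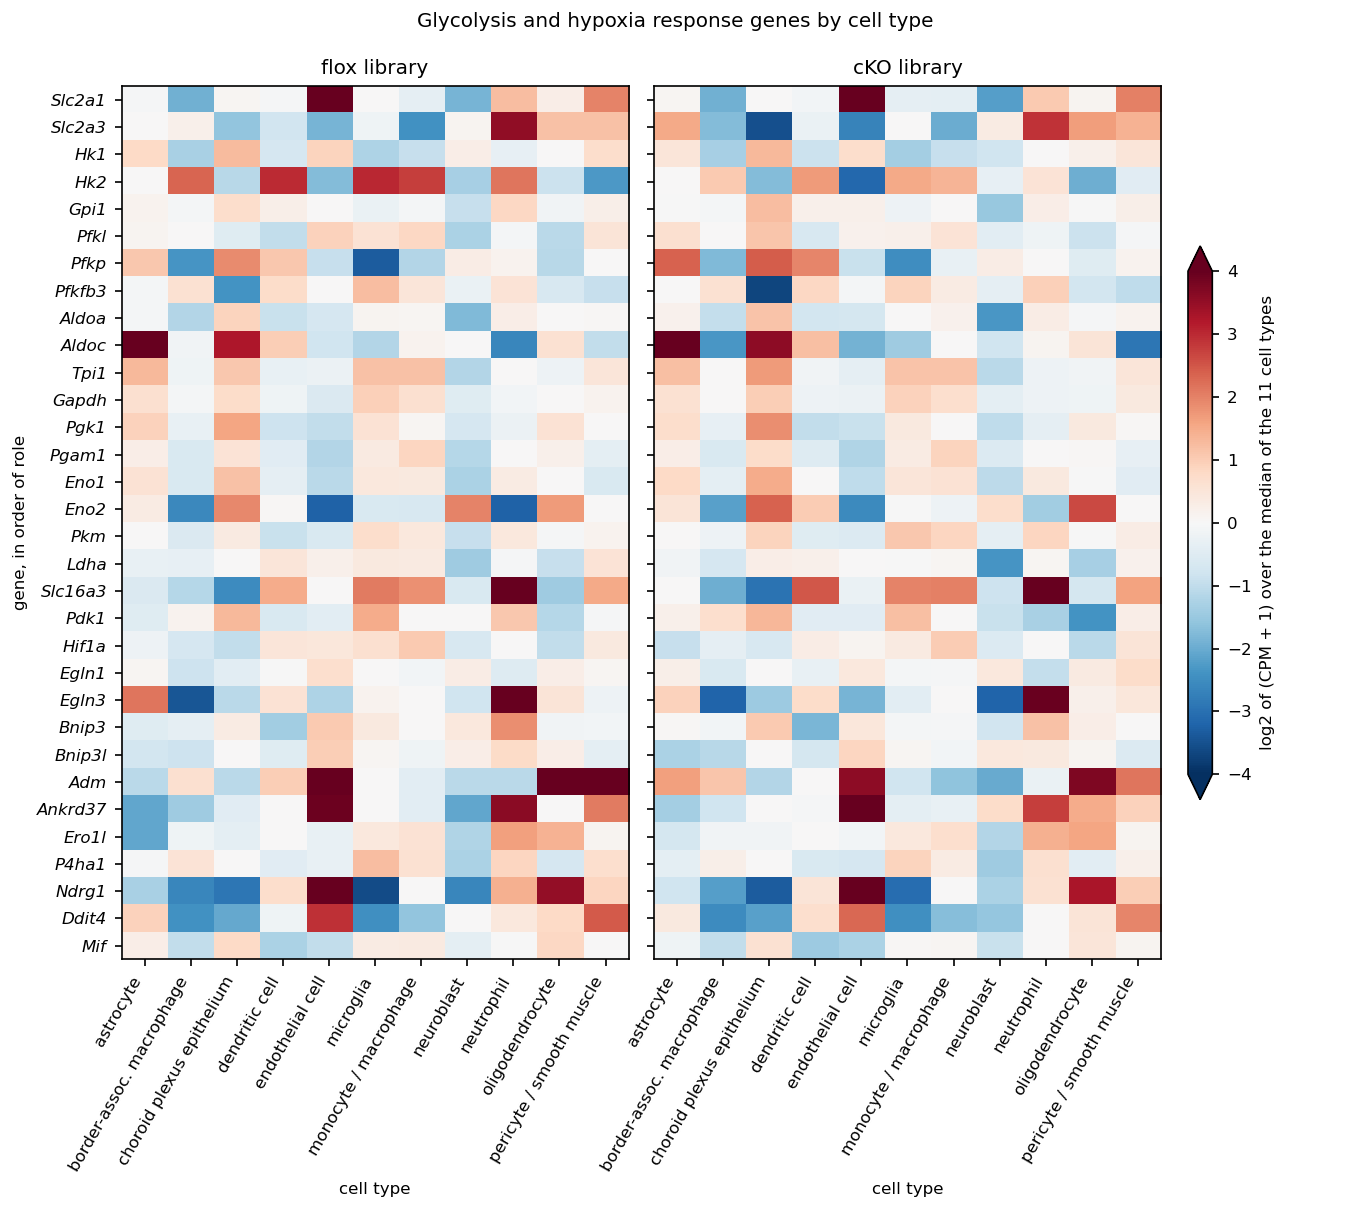
Level of each of the 32 genes (rows, in order of role) in 11 cell types (columns, named by resemblance to marker sets) for the flox and the cKO library, as log2 of CPM + 1 over the median of the 11 classes; colours end at 4 in either direction. Dark red cells include Slc2a1, Ndrg1, Adm and Ankrd37 in endothelial cells, Aldoc in astrocytes, and Slc16a3 and Egln3 in neutrophils. In the cKO library Adm is higher in oligodendrocytes than in endothelial cells.

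Some members were concentrated in 1 cell type and others were spread more evenly. In the class where each was highest, Aldoc stood 240-fold and 310.0-fold above the median of the 11 classes (flox and cKO), Slc2a1 46.4-fold and 40.0-fold, and Slc16a3 23.8-fold and 20.9-fold. For Gpi1, Aldoa, Tpi1, Gapdh, Pgk1, Pgam1, Eno1, Pkm and Ldha the same fold lay between 1.21 and 3.65. The class with the highest level was the same in both libraries for 19 of 32 members, against 67.2% of the 12128 genes that reached 30 UMIs in some class of each library. Of these 19, Hk1, Pfkp, Aldoa, Pgk1 and Eno1 were highest in choroid plexus epithelium (background 6.64%), and Slc2a1, Bnip3l, Ankrd37, Ndrg1 and Ddit4 in endothelial cells (5.89%). Slc2a3, Slc16a3, Egln3 and Bnip3 were highest in neutrophils (7.85%), Pkm and P4ha1 in microglia (2.56%), Pgam1 and Hif1a in monocytes or macrophages (2.27%) and Aldoc in astrocytes (4.62%). No member was highest in border-associated macrophages (3.28%), dendritic cells (3.88%), neuroblasts (16.7%), oligodendrocytes (8.98%) or pericytes or smooth muscle cells (4.53%) in both libraries.

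A size rule counted members at least 2-fold above the median of the 11 classes in both libraries. In neutrophils 6 of 32 members met it, against 5.06% of all genes, and in choroid plexus epithelium 5, against 5.66%. Endothelial cells had 5 such members and oligodendrocytes 5, beside backgrounds of 11.6% and 15.2%, so the oligodendrocyte count of 5 in 32 lies at its background. Microglia had 4 (10.9%), monocytes or macrophages 4 (9.61%), dendritic cells 3 (7.09%), astrocytes 2 (3.89%), pericytes or smooth muscle cells 2 (5.94%), border-associated macrophages 1 (7.39%) and neuroblasts 0 (4.53%). At least 2-fold below the median were 9 members in border-associated macrophages (8% of all genes) and 9 in neuroblasts (10.9%), and 8 each in endothelial cells (9.15%) and choroid plexus epithelium (20.1%). Microglia had 5 members below (6.73%), monocytes or macrophages 2 (11.3%) and dendritic cells 2 (13.7%). Astrocytes (6.65%), neutrophils (22.5%), oligodendrocytes (8.95%) and pericytes or smooth muscle cells (5.08%) had 1 each.

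The glucose transporter Slc2a1 (chr4:119108711-119137983, GRCm38), which carries glucose across the blood-brain barrier, stood at 3590.5 CPM in flox endothelial cells (3521 to 3661, 10107 UMIs) and at 2612 CPM in cKO (2562 to 2663, 10237 UMIs). Pericytes or smooth muscle cells came next with 310.3 and 266.3 CPM, and neutrophils had 182 and 137 CPM, while the other 8 classes lay between 13.3 and 94.0 CPM in either library. The endothelial marker list summed to 2141 and 1392 CPM in pericytes or smooth muscle cells, against 19076 and 15205 CPM in endothelial cells and at most 222 CPM in any other class, and the part of endothelial RNA in the pericyte level was not tested. Slc2a3 (chr6:122727809-122801640), the high-affinity glucose transporter of neurons and leukocytes, was highest in neutrophils at 178 and 82.6 CPM, from 43 and 35 UMIs. Oligodendrocytes had 33.0 and 35.5 CPM of Slc2a3, and monocytes or macrophages 1.84 and 1.90 CPM. Neutrophils therefore carried both transporters. Slc2a3 made up 49.4% and 37.6% of their Slc2a1 and Slc2a3 UMIs, against 3.0% and 3.7% in monocytes or macrophages.

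Hexokinases phosphorylate glucose on entry, and the cell types divided between the constitutive Hk1 and the inducible Hk2. Hk2 (chr6:82725025-82774454) was 121 and 120 CPM in microglia, 119 and 137 CPM in dendritic cells, 102 and 110 CPM in monocytes or macrophages, 74.7 and 88.2 CPM in border-associated macrophages, and 66.2 and 61.4 CPM in neutrophils. The remaining classes had 41.7 CPM or less, and endothelial cells had 3.55 and 3.83 CPM. The 5 myeloid classes thus held the 5 highest Hk2 levels in each library. Hk2 gave 87.4% (86.2 to 88.6) and 90.1% (89.0 to 91.2) of hexokinase UMIs in microglia, and 81.9% to 87.8% in monocytes or macrophages, border-associated macrophages and dendritic cells. In endothelial cells the Hk2 share was 4.3% (2.1 to 7.8) and 6.2% (3.5 to 9.98). Hk1 (chr10:62268855-62379908) ran the other way, at 104 and 89.2 CPM in choroid plexus epithelium and 78.9 and 58.2 CPM in endothelial cells against 17.4 and 13.2 CPM in microglia.

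Phosphofructokinase commits the sugar to glycolysis, and its liver and platelet isozymes Pfkl and Pfkp also split by cell type. Pfkp was 126 and 107 CPM in choroid plexus epithelium, 71.2 and 100.1 CPM in astrocytes and 72.4 and 75.6 CPM in dendritic cells, and 2.45 and 2.52 CPM in microglia. Pfkp made up 85.0% and 90.0% of Pfkl and Pfkp UMIs in dendritic cells, 23.4% and 42.6% in monocytes or macrophages, and 5.9% and 13.7% in microglia. The shifts in microglia and in monocytes or macrophages lie outside each other's intervals (4.5 to 7.6 against 10.4 to 17.6, and 21.5 to 25.4 against 39.7 to 45.5), and they come with less Pfkl in cKO, given below. Pfkfb3, which makes the activator fructose 2,6-bisphosphate, was high in microglia (160 and 136 CPM), dendritic cells (115 and 132 CPM), border-associated macrophages (104 and 112 CPM) and neutrophils (99.2 and 142 CPM). It was lowest in choroid plexus epithelium, at 12.2 and 4.78 CPM from 6 UMIs in each library. Gpi1, the isomerase between hexokinase and phosphofructokinase, ranged from 92.2 and 63.1 CPM in neuroblasts to 310.1 CPM in flox neutrophils and 432.3 CPM in cKO choroid plexus epithelium.

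Among the classes compared, Aldoc (chr11:78322968-78327781), the brain aldolase, was by far highest in astrocytes. Its level there was 1228 CPM in flox (1102 to 1365) and 2000.5 CPM in cKO (1889 to 2117). Choroid plexus epithelium had 56.9 and 88.4 CPM, and the highest of the other compared classes was 16.0 CPM in cKO dendritic cells. Over all kept cells Aldoc had 814 UMIs in flox and 1774 in cKO, of which astrocytes held 345 and 1199. Part of the rest lay in classes that were not compared, and their Aldoc levels are not given here. Aldoc made up 58.0% (53.9 to 62.0) and 62.5% (60.3 to 64.7) of aldolase UMIs in astrocytes and at most 3.6% in the other compared classes. The muscle-type aldolase Aldoa (chr7:126795234-126800751) was present in every class, from 277 and 209 CPM in neuroblasts to 1736 and 2359 CPM in choroid plexus epithelium. Reads of Aldoa and of its retrogene copies Aldoart1 and Aldoart2 may be split by the counting, although the copies had at most 6 UMIs in any class and library. Tpi1, triose phosphate isomerase, was 317 and 265 CPM in astrocytes, 289 and 254 CPM in microglia, 288 and 250 CPM in monocytes or macrophages and 272 and 377 CPM in choroid plexus epithelium, and between 53.1 and 180.3 CPM in the others.

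**Figure D2:**
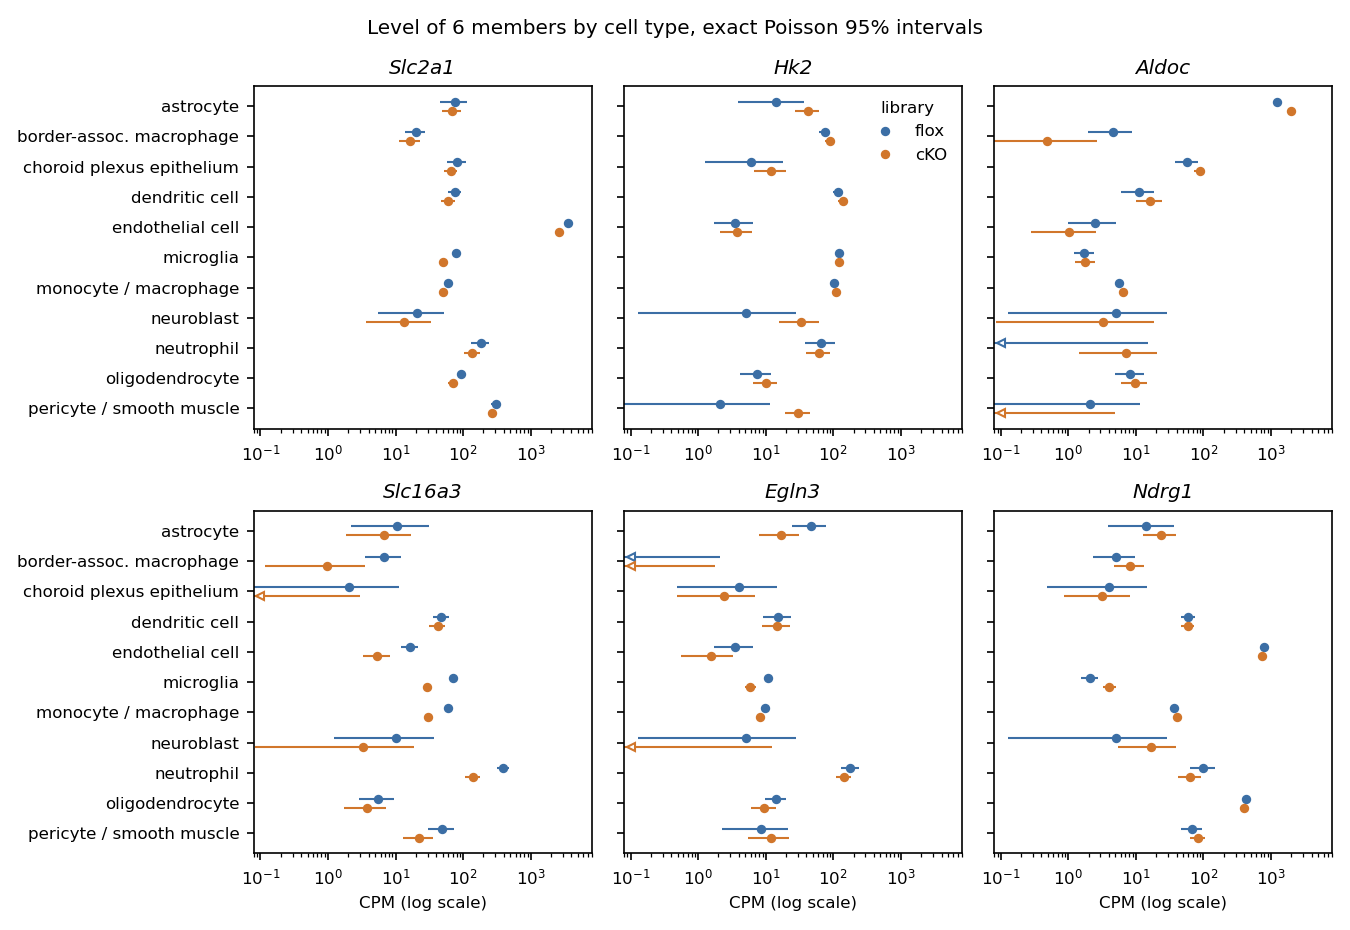
CPM on a log axis with exact Poisson 95% intervals for 6 genes in 11 cell types, flox in blue and cKO in orange, with open triangles for 0 UMIs. Slc2a1 and Ndrg1 are highest in endothelial cells, Aldoc in astrocytes, and Slc16a3 and Egln3 in neutrophils, while the 5 myeloid classes lead for Hk2.

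The enzymes of lower glycolysis, which carry the triose through to pyruvate, varied less. Gapdh (chr6:125161715-125166467), the triose dehydrogenase often used as a reference gene, ranged from 563 CPM in flox endothelial cells to 1986 CPM in cKO choroid plexus epithelium, with 1629 and 1909 CPM in microglia. Pgk1, the ATP-yielding phosphoglycerate kinase, was 917 and 1215 CPM in choroid plexus epithelium, 580.2 and 537 CPM in astrocytes, and 152 and 178 CPM in endothelial cells. The mutase Pgam1 was highest in monocytes or macrophages at 655 and 806 CPM, and pyruvate kinase Pkm in microglia at 983 and 1138 CPM. Enolase Eno1 was 342 and 370.2 CPM in choroid plexus epithelium and 61.5 to 71.0 CPM in neuroblasts and endothelial cells. Its near-identical copy Eno1b is listed apart at no more than 7.96 CPM, so a split of reads between the copies is uncertain. Eno2, the neuronal enolase, was 29.8 and 54.7 CPM in oligodendrocytes and 34.6 and 44.6 CPM in choroid plexus epithelium, and neuroblasts had 7 and 4 UMIs. In oligodendrocytes the Eno2 share of enolase UMIs was 16.5% (13 to 20.6) in flox and 29.6% (25.4 to 34.1) in cKO. In neuroblasts the share was 36.8% (16.3 to 61.6) and 17.4% (4.95 to 38.8), from only 19 and 23 enolase UMIs.

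Lactate dehydrogenase Ldha, which makes lactate, was broadly present, at 87.1 and 49.8 CPM in neuroblasts, 342 and 296 CPM in pericytes or smooth muscle cells, 326 and 301 CPM in dendritic cells and 234 and 318 CPM in choroid plexus epithelium. Its highest class was no more than 1.46-fold above the median. The lactate exporter Slc16a3 (chr11:120948480-120960868), also called MCT4, was far more restricted. Neutrophils had 389 CPM in flox (314 to 476, 94 UMIs) and 139 CPM in cKO (106 to 180, 59 UMIs). Microglia had 71.6 and 29.3 CPM, monocytes or macrophages 60.4 and 30.4 CPM, dendritic cells 47.7 and 42.0 CPM, and pericytes or smooth muscle cells 48.2 and 22.3 CPM from 23 and 17 UMIs. Choroid plexus epithelium, oligodendrocytes, astrocytes and neuroblasts each had at most 12 UMIs in a library, and border-associated macrophages had 12 and 2 UMIs, unlike the other 4 myeloid classes. Pdk1, which shuts pyruvate out of mitochondria by phosphorylating pyruvate dehydrogenase, was 44.1 and 31.7 CPM in microglia and 15.2 and 13.1 CPM in monocytes or macrophages.

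Hif1a, the oxygen-regulated subunit of HIF-1, was 298.5 and 306 CPM in monocytes or macrophages and 71.0 to 96.3 CPM in oligodendrocytes and choroid plexus epithelium. Its level as RNA gives no measure of the protein, which oxygen controls. The prolyl hydroxylase Egln1 (PHD2) was spread evenly, between 33.0 and 112 CPM in all classes and libraries. Egln3 (PHD3, chr12:54178981-54203860) was 178 CPM (129 to 240) and 144 CPM (110.1 to 185) in neutrophils, from 43 and 61 UMIs, or 18.3-fold and 17.4-fold the median of the classes. Border-associated macrophages had 0 Egln3 UMIs in both libraries, which allows up to 1.70 and 1.45 CPM at 3 counts, and monocytes or macrophages had 9.71 and 8.26 CPM. Egln3 made up 78.2% (65.0 to 88.2) and 81.3% (70.7 to 89.4) of the Egln1 and Egln3 UMIs of neutrophils. In the other classes its share was at most 21.8%, except for flox astrocytes with 38.2% of 34 UMIs.

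Among the other hypoxia response genes, the mitophagy receptor Bnip3 (chr7:138890836-138909519) and the oxidoreductase Ero1l, which forms disulphide bonds in the endoplasmic reticulum, were high in neutrophils. Bnip3 was 182 and 116 CPM there and at most 106 CPM in the others, and Ero1l was 153 and 127.5 CPM, beside 129 and 142 CPM in oligodendrocytes. The 6 members above the median in neutrophils were the 2 glucose transporters, the lactate exporter, Egln3, Bnip3 and Ero1l. Neutrophil counts were small, with a median of 1058 and 1300 UMIs per cell, and monocyte or macrophage markers summed to 2117 and 1655 CPM in that class, against 31461 and 22484 CPM for its own markers. Each of the 6 genes was lower in monocytes or macrophages than in neutrophils in both libraries. For Slc2a3, Slc16a3, Egln3 and Bnip3 this follows from neutrophils being their highest class. The part of monocyte or macrophage RNA in the neutrophil levels was not tested.

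Endothelial cells carried another group. Ndrg1, a stress-responsive protein of cell differentiation and myelin upkeep, was 776 and 746 CPM in endothelial cells and 423 and 403 CPM in oligodendrocytes, and 2.10 and 4.07 CPM in microglia. The vasodilator peptide gene Adm was 66.8 and 47.0 CPM in endothelial cells, 36.7 and 53.0 CPM in oligodendrocytes and 50.3 and 17.1 CPM in pericytes or smooth muscle cells, and had at most 28 UMIs in any other class. Ankrd37 (chr8:45996902-46005707), an ankyrin-repeat gene known as a direct HIF-1 target, was 62.5 and 43.1 CPM in endothelial cells and 49.6 and 16.5 CPM in neutrophils. Bnip3l, a second mitophagy receptor, was 399 CPM in the endothelial cells of both libraries. Ddit4 (chr10:59949669-59951834), an inhibitor of the growth kinase complex mTORC1 that also responds to other stresses, was 474 and 109 CPM in endothelial cells and 338 and 85.3 CPM in pericytes or smooth muscle cells. The collagen prolyl hydroxylase P4ha1 was 149 and 136 CPM in microglia, and Mif, a cytokine with tautomerase activity, ranged from 72.4 and 79.4 CPM in dendritic cells to 314 and 302 CPM in oligodendrocytes and 309 and 334 CPM in choroid plexus epithelium.

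Summed over 15 glycolytic enzymes (Hk1 to Ldha without Pfkfb3), choroid plexus epithelium had 6838 CPM (flox) and 9162 CPM (cKO), astrocytes 6161 and 7475, microglia 5669 and 6113, and monocytes or macrophages 5250.2 and 5960.2. Neutrophils had 4363 and 4749, pericytes or smooth muscle cells 4107 and 4724, oligodendrocytes 3893 and 3999, dendritic cells 3010.2 and 3384, border-associated macrophages 2790.1 and 3237, endothelial cells 2636 and 2944, and neuroblasts 1998 and 2176. The order of the 11 classes was the same in both libraries. It differed between them with doublets kept, with the marker gate and with equal weight per cell. Intervals of neighbours overlapped for neutrophils and pericytes or smooth muscle cells in both libraries (4103 to 4634 and 3927 to 4293 CPM in flox), for pericytes or smooth muscle cells and oligodendrocytes in flox, and for dendritic cells and border-associated macrophages in cKO. The endothelial class had the highest Slc2a1 level and the next to lowest enzyme sum. The cKO sum was above the flox sum in all 11 classes, although the intervals of the libraries overlapped in neutrophils, oligodendrocytes and neuroblasts. With doublets kept neuroblasts turned, with 3124 CPM in flox against a lower cKO sum. Without Gapdh the cKO sum was still the higher in each class. The difference was then small in endothelial cells (2073 and 2104 CPM), neuroblasts (1393 and 1415 CPM) and oligodendrocytes (3050 and 3111 CPM).

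**Figure D3:**
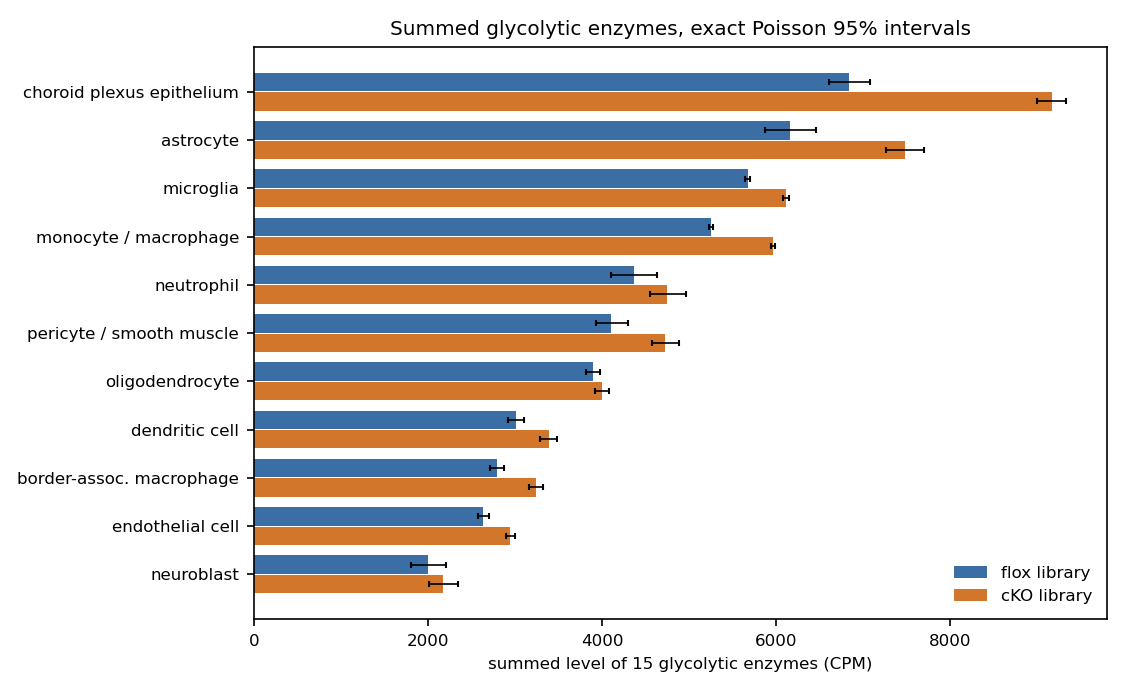
Summed CPM of 15 glycolytic enzymes in 11 cell types, with flox in blue, cKO in orange and exact Poisson 95% intervals. Bars run from 1998 and 2176 CPM in neuroblasts to 6838 and 9162 CPM in choroid plexus epithelium, in the same order in both libraries.

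Within microglia the enzyme sum differed between clusters. The cluster led by the homeostatic genes Siglech, Slc2a5, Gpr34, Sall1 and P2ry12 (734 flox and 282 cKO cells) had an enzyme sum of 2858 and 2643 CPM. The cluster led by Lpl, Cd5l, Spp1 and Fcrls (843 and 686 cells) had 6490.4 and 6526 CPM, and the cluster led by the cell cycle genes Prc1, Ccna2 and Top2a 5951 and 6366 CPM. Set against the Lpl and Spp1 cluster, 10 of the 26 members measured in both libraries were at least 2-fold lower in the homeostatic cluster in both libraries, namely Aldoa, Tpi1, Gapdh, Pgk1, Pgam1, Eno1, Eno2, Pkm, Ldha and Mif, and 0 were at least 2-fold higher. Of 9389 genes, 7.25% were so lower and 5.6% so higher. The pair was chosen after its levels were seen, and it holds the highest and lowest enzyme sum of the microglial clusters in both libraries. The count of lower enzymes is therefore tied to that choice and is no independent result. Pkm had the largest difference among those with at least 100 UMIs in both clusters, at 365 against 1160.3 CPM in flox (log2 −1.67, −1.75 to −1.58) and 311 against 1255 CPM in cKO (−2.01, −2.14 to −1.89).

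Hk2, Slc2a1 and Pdk1 were higher in the homeostatic cluster, by less than 2-fold. Hk2 was 197 CPM there against 117 in the Lpl and Spp1 cluster in flox, and 212 against 126 in cKO (log2 0.75, 0.61 to 0.88, and 0.75, 0.58 to 0.92). Slc2a1 was 105 against 72.0 CPM and 71.4 against 47.3 CPM (0.55, 0.37 to 0.73, and 0.59, 0.30 to 0.88), and Pdk1 63.9 against 41.0 CPM and 57.6 against 30.7 CPM (0.64, 0.40 to 0.87, and 0.91, 0.57 to 1.23). Ddit4 was 35.8 against 5.11 CPM in flox (2.81, 2.34 to 3.30) and 14.4 against 2.09 CPM in cKO (2.78, 1.91 to 3.66), and it is not among the 26 because the cKO clusters held 25 and 23 UMIs, below the minimum of 30. Other genes of glucose entry and its control did not share this direction. Pfkfb3 was lower in flox (−0.25, −0.38 to −0.11) and near level in cKO (−0.05, −0.25 to 0.14), Pfkl was −0.41 in flox and 0.45 in cKO, and the intervals of Hk1 and Slc2a3 held 0 in both libraries. The homeostatic cluster made up 31.7% of flox and 18.1% of cKO microglia, and its cells were shallower, with a median of 4254 and 5945.5 UMIs against 12089 and 16123.5. The part of depth in these differences was not tested. A further microglial cluster of low depth (median 880 and 1011 UMIs) had enzyme sums of 5965 and 6492 CPM.

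**Figure D4:**
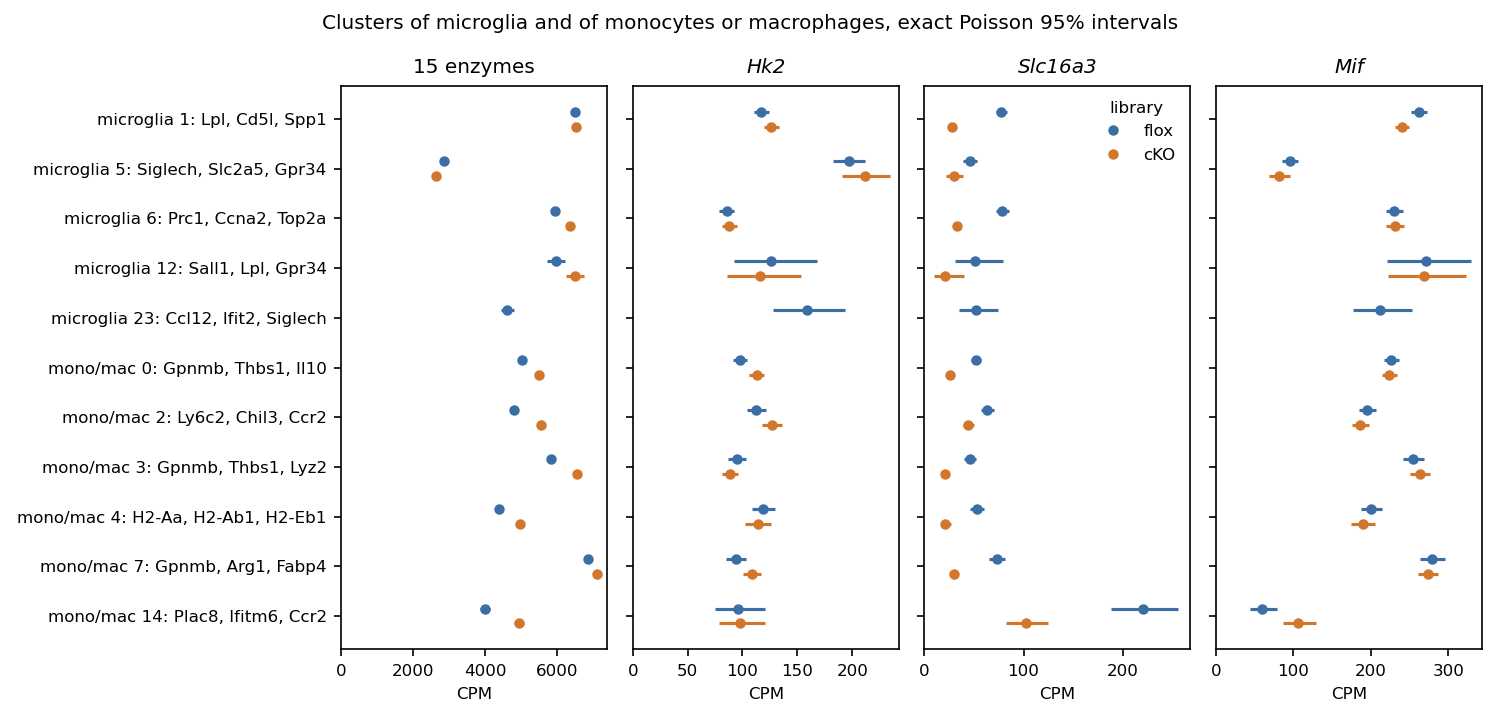
CPM with exact Poisson 95% intervals in clusters of microglia and of monocytes or macrophages (labelled by leading genes), flox in blue and cKO in orange, for the sum of 15 enzymes, Hk2, Slc16a3 and Mif; a cluster with under 50 cells in a library has no point for it. Microglial cluster 5 has an enzyme sum of 2858 and 2643 CPM and Hk2 of 197 and 212 CPM, and monocyte or macrophage cluster 14 has Slc16a3 of 220 and 102 CPM.

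The enzyme sum spread less across the clusters of monocytes or macrophages. The highest cluster had 1.72-fold (flox) and 1.44-fold (cKO) the sum of the lowest, against 2.27-fold and 2.47-fold in microglia. The cluster led by Gpnmb, Arg1, Fabp4 and Cd36 (375 and 456 cells) had an enzyme sum of 6849 and 7103 CPM, the highest of 6 clusters, and the cluster led by the monocyte genes Plac8, Ifitm6, Ccr2 and Ly6c2 (192 and 178 cells) had 3984 and 4938 CPM. In the monocyte cluster Slc16a3 was 220.1 and 102 CPM against 73.0 and 29.8 CPM in the Gpnmb cluster, and Pfkp 45.3 and 45.6 against 16.6 and 16.3 CPM. These were the 2 of 29 members at least 2-fold higher in both libraries (6.95% of 7579 genes), while Pgam1, Eno2 and Mif were at least 2-fold lower (7.02%). Both counts lie near the background. This pair, too, was chosen after its levels were seen, and it holds the highest and lowest enzyme sum of the 6 clusters. Mif was 59.6 and 107 CPM in the monocyte cluster and 279 and 274 CPM in the Gpnmb cluster. Egln3 was 22.0 and 30.4 CPM in the monocyte cluster and 12.8 and 8.70 CPM in the other, and Hif1a was 414 and 478 against 337 and 317 CPM.

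The endothelial class held a cluster led by Spock2, Flt1, Slco1a4 and Slco1c1 (231 and 102 cells) and one led by Igfbp7, Cldn5 and Tmem252 (333 and 440 cells). Slc2a1 was 5384 and 5040.3 CPM in the Spock2 cluster and 2804 and 2272 CPM in the Igfbp7 cluster. Bnip3 was the single member of 25 at least 2-fold higher in the Spock2 cluster in both libraries, at 170.1 and 162 against 74.1 and 57.3 CPM (3.57% of genes), and 0 members were at least 2-fold lower (3.05%). Both counts lie near the background. The Spock2 cluster made up 41.0% of flox and 18.8% of cKO endothelial cells.

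Between libraries, no member was at least 2-fold higher in cKO in any class and 14 of 251 measured pairs of member and class were at least 2-fold lower, or 5.58%. A pair was measured with at least 30 UMIs in the higher library, and called when its interval also excluded equal levels. Over all genes 4.83% of 67398 such pairs were called lower and 1.51% higher, so the members' count of lower calls is near the background. By class, the members called lower were 4 of 31 in microglia (5.8% of all genes), 3 of 27 in endothelial cells (6.4%), 2 of 31 in monocytes or macrophages (5.31%) and 2 of 20 in neutrophils (2.89%). Astrocytes (3.34%), oligodendrocytes (4.6%) and pericytes or smooth muscle cells (3.99%) had 1 each, and border-associated macrophages (4.81%), dendritic cells (4.7%), choroid plexus epithelium (2.95%) and neuroblasts (2.74%) had 0. No member was called higher, beside backgrounds of 4.32% in astrocytes, 1.12% in border-associated macrophages, 2.78% in choroid plexus epithelium, 0.555% in dendritic cells, 0.838% in endothelial cells, 0.626% in microglia, 0.606% in monocytes or macrophages, 4.23% in neuroblasts, 2.93% in neutrophils, 1.04% in oligodendrocytes and 4.5% in pericytes or smooth muscle cells. All 14 calls fell on 5 genes, which were Ddit4, Pfkl, Slc16a3, Slc2a3 and Ankrd37.

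Ddit4 was lower in cKO in each of the 7 classes that measured it, and was called in 6. In endothelial cells it was 474 CPM in flox (1333 UMIs) and 109 CPM in cKO (426 UMIs), a log2 ratio of −2.12 (−2.28 to −1.96). Pericytes or smooth muscle cells had 338 and 85.3 CPM (−1.98, −2.42 to −1.56), astrocytes 117 and 28.4 CPM (−2.05, −2.99 to −1.16) and oligodendrocytes 108 and 30.9 CPM (−1.81, −2.21 to −1.43). Levels were low in monocytes or macrophages, at 20.1 and 5.77 CPM (−1.80, −2.05 to −1.56), and in microglia, at 10.5 and 3.05 CPM (−1.78, −2.21 to −1.37). Dendritic cells had the smallest difference, with 54.9 and 34.4 CPM (−0.68, −1.25 to −0.11). The interval lay below 0 in all 7 classes. Relative to the median of the other classes the Ddit4 ratio of a class lay between −0.32 and 0.12, except for dendritic cells at 1.22. Relative to genes of like 3′ GC content it lay between −2.14 and −1.80 in the 6 called classes. Within clusters it was −2.16 and −2.02 in the endothelial clusters, and between −1.29 and −1.82 in 3 microglial clusters.

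Slc16a3, the lactate exporter, was lower in cKO in all 5 classes that measured it. The log2 ratio was −1.48 (−1.98 to −0.996) in neutrophils, −1.29 (−1.43 to −1.15) in microglia and −1.61 (−2.43 to −0.83) in endothelial cells, where it rested on 46 and 21 UMIs. Monocytes or macrophages were just short of the 2-fold rule at −0.99 (−1.10 to −0.88), and dendritic cells had −0.18 with an interval across 0 (−0.74 to 0.37). Of the 6 monocyte or macrophage clusters each was lower in cKO, from −0.53 to −1.32. In microglia it was −1.47 in the Lpl and Spp1 cluster, −1.26 in the cycling cluster and −0.61 (−1.09 to −0.15) in the homeostatic cluster. Neutrophil markers summed to 31461 (flox) and 22484 CPM (cKO) in the neutrophil class, and their part in the neutrophil difference was not tested.

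Pfkl (chr10:77986947-78010083) was 50.4 and 15.3 CPM in endothelial cells (−1.72, −2.18 to −1.28), 39.0 and 15.9 CPM in microglia (−1.30, −1.48 to −1.11), and 47.2 and 20.4 CPM in monocytes or macrophages (−1.21, −1.34 to −1.07). Border-associated macrophages had 26.0 and 13.6 CPM (−0.94, −1.67 to −0.23), and choroid plexus epithelium went the other way with 9 and 38 UMIs (0.73, −0.35 to 1.96). The paired isozyme Pfkp did not share the difference in microglia (0.04, −0.54 to 0.61) or in monocytes or macrophages (0.07, −0.12 to 0.26). In endothelial cells Pfkp was lower in cKO as well (−0.84, from 49 and 38 UMIs). Slc2a3 in neutrophils (−1.11, −1.79 to −0.43) and Ankrd37 in microglia (3.26 and 0.968 CPM from 73 and 20 UMIs, −1.75, −2.54 to −1.02) were the remaining calls. Erythrocyte markers summed to 537 and 85.9 CPM in microglia, and their part in the microglial ratios was not tested. Ankrd37 was also lower in endothelial cells, at 62.5 and 43.1 CPM (−0.54, −0.85 to −0.22).

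**Figure D5:**
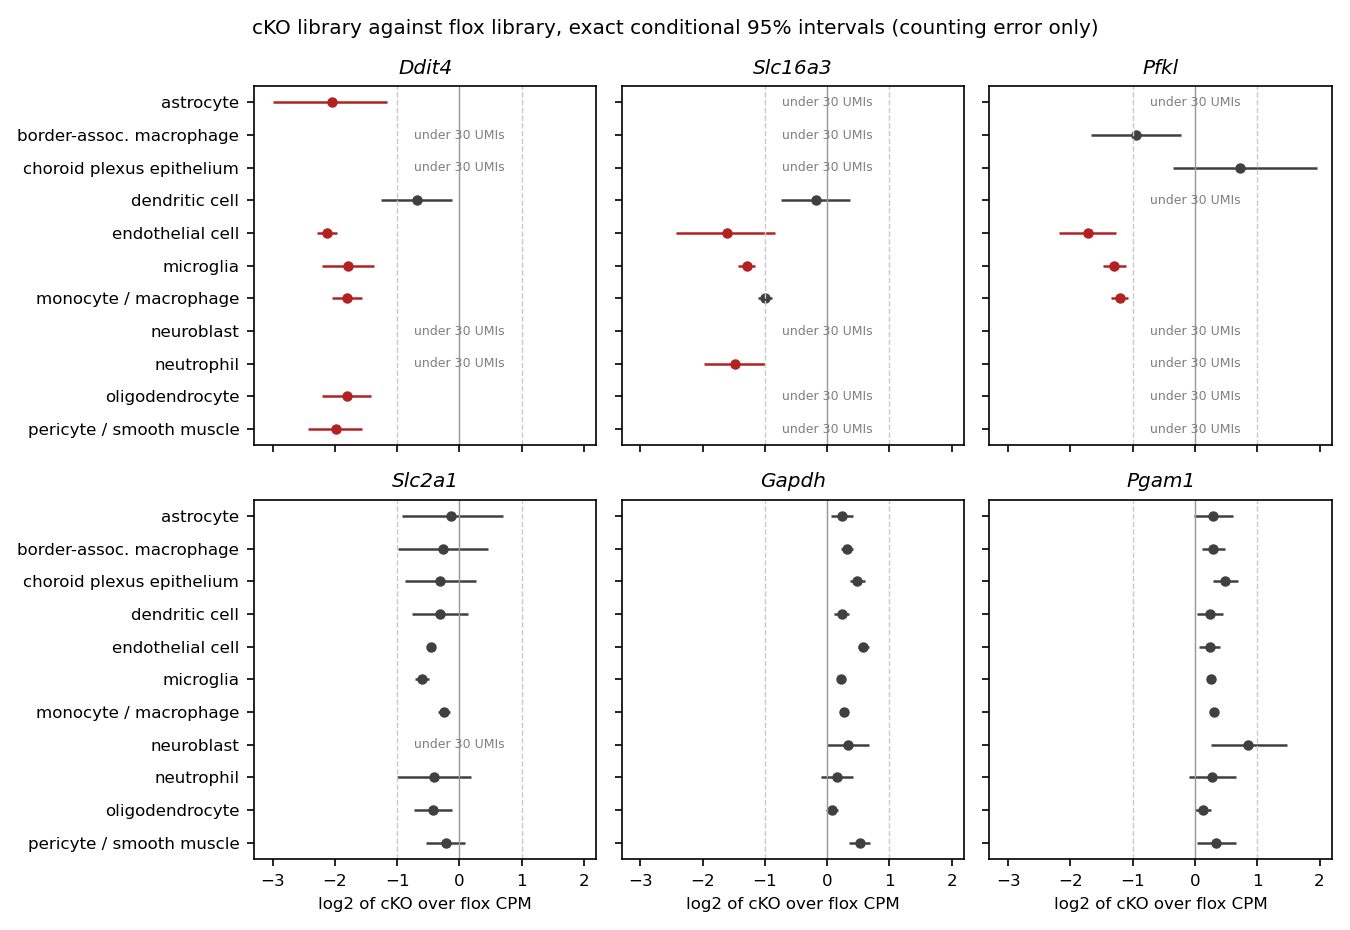
Log2 of cKO over flox CPM in 11 cell types with exact conditional 95% intervals for Ddit4, Slc16a3, Pfkl, Slc2a1, Gapdh and Pgam1. Red points are calls of at least 2-fold, grey lines mark 0 and broken lines 2-fold, and classes under 30 UMIs in both libraries are marked so. Ddit4 lies between −2.12 and −1.78 in 6 classes, and Gapdh and Pgam1 lie above 0 in all 11.

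Some smaller differences had the same sign across classes and others did not. Of those with mixed signs, Pgk1 was above 0 in 5 of 11 classes, Pkm in 7 of 11, and Tpi1 and Ldha each in 3 of 10. Slc2a1 was below 0 in 10 of 10 measured classes, from −0.60 to −0.13, with intervals below 0 in microglia, endothelial cells, oligodendrocytes and monocytes or macrophages. In endothelial cells it was −0.46 (−0.50 to −0.42) over the class but −0.30 (−0.35 to −0.25) in the Igfbp7 cluster and −0.10 (−0.17 to −0.02) in the Spock2 cluster, and the Spock2 cluster, with its higher level, was the smaller share in cKO. Hk1 was below 0 in 8 of 8 classes. Gapdh was above 0 in 11 of 11 classes, from 0.08 to 0.58, with 9 intervals above 0, and Pgam1 in 11 of 11, from 0.12 to 0.85, with 8. Aldoa was above 0 in 10 of 11. Hk2 was level in microglia (−0.01, −0.09 to 0.07).

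The higher enzyme sum of cKO microglia stood beside the change in cluster shares. In the Lpl and Spp1 cluster the sum differed by a log2 ratio of 0.01 (−0.01 to 0.02), and in the homeostatic cluster by −0.11 (−0.16 to −0.06), while the cycling cluster had 0.10 (0.08 to 0.12). In each of the 6 monocyte or macrophage clusters the sum was higher in cKO, from 0.05 to 0.31. Aldoc was higher in cKO astrocytes (0.70, 0.53 to 0.88), where microglial markers summed to 1388 (flox) and 435 CPM (cKO) and astrocyte markers to 19441 and 26073 CPM. The part of these cells in the Aldoc ratio was not tested. Aldoc was also above 0 in choroid plexus epithelium (0.63, 0.03 to 1.29). Eno2 was above 0 in oligodendrocytes (0.88, 0.44 to 1.33), microglia (0.59, 0.23 to 0.94) and monocytes or macrophages (0.43, 0.12 to 0.74). Ndrg1 was 0.96 in microglia (0.42 to 1.503), from 47 and 84 UMIs, and 0.19 in monocytes or macrophages (0.07 to 0.30).

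The median log2 ratio over the measured members was 0.39 in choroid plexus epithelium (23 members), against 0.11 for all genes measured there. It was −0.21 in endothelial cells (27 members, −0.09 for all genes), −0.15 in microglia (31, −0.04), −0.11 in astrocytes (21, 0.06) and −0.10 in neutrophils (20, 0.11). The other 6 classes had medians between −0.03 and 0.20, the last from 8 members in neuroblasts. The sign turned in astrocytes with TMM scaling (0.0075) and with a minimum of 10 or 100 UMIs (0.028 with either), in neutrophils with 100 UMIs (0.21), and in neuroblasts with doublets kept (−0.41) or with 10 UMIs (−0.048). No class had its members all on one side, and in microglia 10 of 31 ratios were above 0. In choroid plexus epithelium 19 of 23 ratios were above 0, against 60.2% of all genes, and microglial markers summed there to 1049 and 359 CPM.

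The 61 other genes of the pathway, of which 54 were measured in at least 1 class, gave 288 pairs with 5 calls higher and 7 lower in cKO. These are 1.74% and 2.43% of the pairs, against 1.51% and 4.83% over all genes, so the higher calls lie near the background and the lower calls below it. The angiogenic factor Vegfa was higher in border-associated macrophages (7.92 and 21.3 CPM, 1.43, 0.53 to 2.41) and in pericytes or smooth muscle cells (41.9 and 94.5 CPM, 1.17, 0.44 to 1.97). The transcription factor Nfil3 was higher in neutrophils (1.04, 0.36 to 1.78). The secreted peroxidase Gpx3 was higher in choroid plexus epithelium, at 14.2 and 134 CPM, where the flox level rested on fewer than 30 UMIs. Gpx3 was lower in monocytes or macrophages (54.7 and 22.9 CPM, −1.26, −1.38 to −1.13) and border-associated macrophages (433 and 215 CPM, −1.01, −1.18 to −0.84). The hexose transporter Slc2a6 was lower in microglia (41.3 and 19.8 CPM, −1.06, −1.23 to −0.89) and dendritic cells (−1.21, −1.82 to −0.63). The mitochondrial subunit Ndufa4l2, a pericyte-rich hypoxia gene, was lower in pericytes or smooth muscle cells at 470 and 167 CPM (−1.495, −1.82 to −1.17), where the class's own markers summed to 21502 and 14704 CPM and microglial markers to 398 and 935 CPM, and their part was not tested. Cited2 in astrocytes and Zfp395 in oligodendrocytes completed the lower calls.

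Hilpda, the targeted gene, was 472 and 267 CPM in monocytes or macrophages, 100.2 and 224 CPM in microglia and 203 and 33.0 CPM in neutrophils. These tags come from the 3′ end, and no source used here says whether that end lies in the deleted part, so they do not check the labels.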

How the data were processed

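Infarcted mouse brain was profiled as 1 flox and 1 Hilpda cKO library. The authors deposited whole-number UMI counts for every gene and barcode, with no normalization. The submitters' processing notes name CASAVA 1.8, STARsolo, Seurat and the build mm10, with settings and annotation not given in the sources used here. In all, 67864602 UMIs lay in 8593 flox barcodes and 70665440 UMIs in 7382 cKO barcodes.

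Cells below 500 UMIs, below 200 genes or above 25% mitochondrial UMIs were dropped, which left 8275 and 7126. Scrublet in scanpy 1.11.5 marked 2.59% and 2.02% as doublets, which were left out. Both libraries were clustered together from 2000 variable genes, without the 32 members, 61 other pathway genes and Hilpda, on 30 principal components with 20 neighbours by Leiden (leidenalg 0.10.2) at resolution 1, which gave 29 clusters. A cluster took the name of a marker list of which at least 3 genes were in 10% of its cells and 2-fold above the median cluster, unless its 10 leading genes went against it, and pericyte and smooth muscle lists were merged. Clusters led by cell cycle genes kept their class. B cells, T or NK cells, ependymal cells, fibroblasts and oligodendrocyte precursors were not compared, with under 50 cells in a library.

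Raw counts were summed per class and library. Intervals are exact (scipy 1.17.1) and cover counting error only. A gene was measured with 30 UMIs in the higher library and called when at least 2-fold apart with an interval excluding equal levels, and a count of 0 allows up to 3 counts. No test was made. GENCODE coordinates on GRCm38 and RefSeq promoters of GRCm38.p6 were used. All 32 members and the called genes of the other list were named, except for 1 call that is not reported here. The members and lists were chosen with earlier results of these data known, and the pairs of clusters set against each other were chosen after their levels were seen. The calculation was tested on simulated counts, where 3-fold changes were called for 100% of 50 raised and 100% of 50 lowered genes in monocytes or macrophages, 100% and 96% in microglia, 98% and 100% in endothelial cells and 100% and 92% in neutrophils. Changes of 1.5-fold, under the 2-fold rule, were called for 0% to 6%, and 2 of 10310 unchanged genes were called in monocytes or macrophages. The simulated counts held counting error only and no variation between libraries. These shares therefore give no rate of false calls for the real libraries. Alternatives covered cell filters, doublets, resolution, marker gating, weighting, TMM scaling (edgeR 4.0.16), 3′ GC, other classes and count minimums.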

Additional observations from a re-analysis of the deposited data

How the results depend on the processing

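The calls between libraries depended on the count rules. Against 0 members called higher and 14 lower, the counts were 3 and 25 with at least 10 UMIs, 9 lower with at least 100 UMIs, and 6 lower with at least 100 CPM, since the members called were mostly low. Relative to the median of the other classes 4 were called higher and 3 lower, and the Ddit4 ratio turned to 0.12 in microglia, 0.094 in monocytes or macrophages and 0.086 in oligodendrocytes, because it was lower in the other classes too. Called higher were 1 with at most 10% mitochondrial UMIs, 3 with equal weight per cell, 1 with TMM factors and 2 relative to genes of like 3′ GC. With at most 10% mitochondrial UMIs 7 classes were left, the members above the median of classes summed to 20 instead of 37, and 40 of 64 highest classes were as before. With at least 2000 UMIs per cell 8 classes were left and that sum was 21. The marker gate left 10 classes.

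Median ratios moved in small classes. In neuroblasts the 0.20 became −0.41 with doublets kept, 0.34 with TMM, 0.10 relative to like GC, 0.36 with 100 UMIs and −0.048 with 10. In astrocytes the −0.11 became −0.23 with equal weight, 0.0075 with TMM, 0.028 with 100 UMIs and 0.028 with 10. In neutrophils the −0.10 became 0.21 with 100 UMIs and −0.21 with 10, and in dendritic cells 0.14 with 100. Endothelial cells had −0.072 with equal weight and −0.074 with TMM instead of −0.21. Choroid plexus epithelium had 0.29 relative to like GC and 0.23 relative to other classes instead of 0.39. Pericytes or smooth muscle cells had 0.15 with the marker gate and 0.12 with equal weight instead of 0.02. TMM raised cKO by a log2 of at most 0.14.

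Enzyme sums moved by over 10% with doublets kept in flox endothelial cells (2957 CPM) and flox neuroblasts (3124). With the marker gate they were 2704 and 2843 in dendritic cells and 1535 and 1584 in neuroblasts. With equal weight they were 2489 in flox border-associated macrophages, 4877 and 5499 in microglia, 1557 and 1667 in neuroblasts and 4253 in cKO pericytes or smooth muscle cells. The cause of these shifts was not tested. Leaving out the 56 shared barcodes or the microglial cluster of low depth, both chosen after seeing the data, moved no result. No paired analysis was possible because each group has 1 library.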
